A study of Mus musculus with 17 samples.

Results

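Mouse CD8+ T cells without the gene Cblb were compared with wild-type cells after stimulation through the antigen receptor alone. The comparison took 6 of the 17 RNA sequencing libraries of the series, chosen by the genotype and stimulation in their labels: 3 of knockout (KO) and 3 of wild-type (WT) cells, each stimulated for 12 h with anti-CD3. All were purified CD8+ T cells of the C57BL/6 strain, and the labels name the genotypes only as CBLB knockout and wild type, without the allele, the age of the mice or the dose of antibody. The other libraries were unstimulated cells (3 KO and 3 WT) and cells given anti-CD3 together with anti-CD28 (3 KO and 2 WT). They helped to estimate the spread between replicates and show the same genotype difference in other states. The whole table of genes was tested, and 16246 genes passed the filter on low counts. No label says whether replicates came from separate animals or cultures. The p-values therefore speak of the spread among these libraries, part of which may be technical.

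The product of Cblb, Cbl-b, is a ubiquitin ligase of the Cbl family known as a brake on T cell activation. Such a ligase couples ubiquitin to chosen proteins, and those known for Cbl-b lie close to the antigen receptor and to the costimulatory receptor CD28, among them the regulatory subunit of phosphoinositide 3-kinase and adaptors of the Crk family. Anti-CD3 binds the CD3 chains of the receptor complex and so gives the antigen signal without the CD28 signal. In normal T cells this single signal is known to be weak and can lead to anergy, a state of poor response, while T cells without Cbl-b are known to respond with less need of CD28.

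Levels are in CPM, the counts of a library brought to a shared total, which compare libraries and not genes of different length. Differences are log2 fold changes, KO minus WT, ± SE, from edgeR's quasi-likelihood test on all 17 libraries. A gene is called where its adjusted p (Benjamini-Hochberg over all genes tested) was below 0.05. Replicates are those of cells given anti-CD3 unless another state is named.

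The 6 libraries held 16635826 to 38269033 counts. Cd8a stood at 595, 579.9 and 639 CPM in KO and 588, 609.5 and 605 CPM in WT cells, which overlap. Of 10 CD8 T cell markers, 0 were called higher and 2 lower (Cd3d and Cd3g), 2 more (Cd8b1 and Cd3e) had every KO library below every WT library, and 2 (Thy1 and Cd5) had every KO library above. Cd8b1 stood at 416, 399 and 406 CPM in KO and 457, 441 and 457 CPM in WT cells. The 10 markers summed to 2251 to 2409 CPM in KO and 2390.4 to 2404 CPM in WT cells, and Cd4 had at most 2 counts in any of these libraries. Marker lists of other cells were low, as sums over the list: B cells 9.51 to 12.4 CPM in KO and 8.27 to 10.8 CPM in WT cells, myeloid and dendritic cells 7.12 to 7.48 CPM in KO and 6.96 to 9.33 CPM in WT cells, CD4 and regulatory T cells 22.9 to 26.2 CPM in KO and 20.9 to 25.1 CPM in WT cells, and NK and innate-like T cells 7.32 to 9.01 CPM in KO and 8.53 to 12.3 CPM in WT cells. S100a9, Cd14, Ncr1 and Krt8 had 0 counts in all 6 libraries. The list of red cell and stromal markers summed to 133 to 146 CPM in KO and 159 to 178 CPM in WT cells, nearly all of it Pecam1. Of 30 members tested in these 5 lists, 1 was called, the B cell gene Cd22 (higher). The small structural RNAs Rn7sk, Rn7s1 and Rn7s2 summed to 71450.3 to 82538 CPM in KO and 41935 to 61416 CPM in WT cells, so that every KO library lay above every WT library, and mitochondrially encoded genes to 10097 to 10640.2 CPM in KO and 11412 to 12907 CPM in WT cells, with every KO library below. Of the 3 structural RNAs and the 13 mitochondrial genes, 0 were called, and 2 of the 13 had every KO library below every WT library. With the GC correction the median log2 fold change of the structural RNAs went from 0.64 to 0.18. That of the mitochondrial genes went from -0.115 to 0.071. The part of these RNAs in the results below was not tested. In RNA from bulk cells, fewer cells of a type and less RNA per cell cannot be told apart.

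Cblb itself, on the plus strand of chromosome 16 in GRCm38, checked the labels. It stood at 78.4, 79.2 and 83.8 CPM in the KO libraries and 190.1, 180.4 and 190 CPM in the WT libraries, with no overlap; the difference was -1.21 ± 0.083 (adjusted p = 5.66e-07). The counts are per gene, and no label gives the deleted part, so the KO level does not measure intact transcript. Within 10 Mb of Cblb on chromosome 16, 77 other genes were tested, of which 8 were higher (10.4%, beside 10.5% of all genes) and 11 lower (14.3%, beside 4.8%). Cd96, an adhesion receptor of T and NK cells whose gene lies in this stretch, fell from 139, 120.4 and 149.5 CPM in WT to 59, 61.7 and 54.5 CPM in KO cells (-1.22 ± 0.12, adjusted p = 1.47e-05), and Cd200, a ligand of an inhibitory myeloid receptor, rose (1.54 ± 0.25, adjusted p = 0.000831).

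Over all genes, 2492 of 16246 were called (15.3%). Of these, 1713 were higher in KO cells (10.5% of the genes tested) and 779 lower (4.8%), and 2481 of the called genes had no overlap between the 3 KO and the 3 WT libraries. Of all genes tested, 4446 (27.4%) had every KO library above every WT library and 2859 (17.6%) every one below. By at least 2-fold, 387 genes were higher (2.38%) and 42 lower (0.259%). Protein-coding genes were called higher in 1611 of 11908 cases and lower in 681, pseudogenes in 59 and 13 of 1240, and other noncoding genes in 43 and 85 of 3098. KO replicate 3, the deepest of the 6, was the highest KO library in 1561 of the 1713 genes called higher (91.1%) and the lowest in 620 of the 779 called lower (79.6%). The same shares over all genes tested were not taken. Without KO replicate 3, 616 genes were higher (3.8% of 16192) and 237 lower (1.46%), 853 in all (5.27%), and 850 of these were among the 2492. Without WT replicate 2 and without WT replicate 3 the count was 1348 and 1268. In a fit of the 6 libraries alone it was 5262 (34.7% of 15186), 20.6% higher and 14.1% lower, and across all 29 alternatives 767 of the genes kept their call and direction. Scaling by relative log expression gave 1428 higher (8.79%) and 1070 lower genes (6.59%) in place of 1713 and 779.

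**Figure D1:**
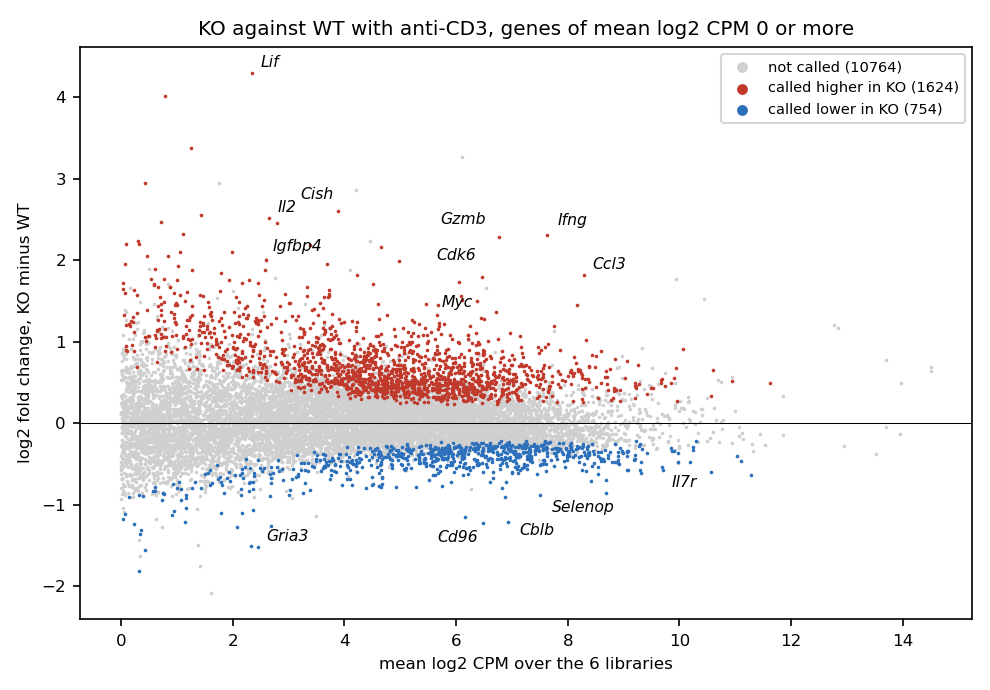
Each point is a gene tested with a mean log2 CPM of at least 0, with its mean log2 CPM over the 6 libraries on the x axis and the log2 fold change of KO minus WT on the y axis. Red and blue mark genes called higher and lower in KO cells. Lif has the highest log2 fold change of the named genes (4.29), and Gria3 the lowest (-1.52).

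The libraries also differed in how the level of a gene went with its GC content, the share of G and C bases in its longest transcript. The 9944 expressed protein-coding genes were cut into 5 equal classes of GC content, class 1 below 43.4% and class 5 above 55.0%. For each library a tilt was taken as the median deviation (log2, from the mean of the 6 libraries) of class 5 minus that of class 1. The tilt was 0.24, 0.15 and 0.26 in KO replicates 1 to 3 and -0.049, -0.30 and -0.31 in WT replicates 1 to 3. Each KO library was thus tilted to GC-rich genes relative to each WT library, and WT replicate 1 lay between the other WT libraries and the KO libraries. The means differed by 0.44 (0.22 ± 0.058 in KO and -0.22 ± 0.15 in WT, SD, n = 3; exact permutation test, two-sided, p = 0.1, the smallest that 3 against 3 allows).

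Calls followed this trend. From class 1 to class 5, the share of genes called higher was 2.46%, 9.95%, 16%, 24.1% and 21.8%, and the share called lower was 11.3%, 12.3%, 7.19%, 1.76% and 0.302%. The median log2 fold change over the same classes was -0.100, -0.036, 0.037, 0.16 and 0.35. Genes of class 5 were thus called higher more often than genes of class 1, and lower less often, in these counts. When each library's curve of level on GC content was taken out (GC correction), the share called higher was 24.7%, 25.3%, 24%, 23.9% and 18.8% and the share called lower 5.43%, 7.79%, 7.8%, 8.4% and 8.04%. The corrected fit called 2611 genes higher (16.1%) and 887 lower (5.46%), 3498 in all. Of the 2492 genes called without it, 2036 were called in the same direction with it and 456 lost their call. A form of the correction that also sets the mean level of each library gave 1722 higher and 1891 lower genes, with the median of all genes at -0.049 in place of 0.037, so the share of calls that were higher (68.7% without correction) moved to 47.7%. The trend and the genotype cannot be told apart in these 6 libraries, and what gave rise to it was not tested. The counts of the gene lists below are to be read beside the shares over all genes. Those shares were 10.5% higher and 4.8% lower, 16.1% and 5.46% with the GC correction, and 3.8% and 1.46% without KO replicate 3.

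**Figure D2:**
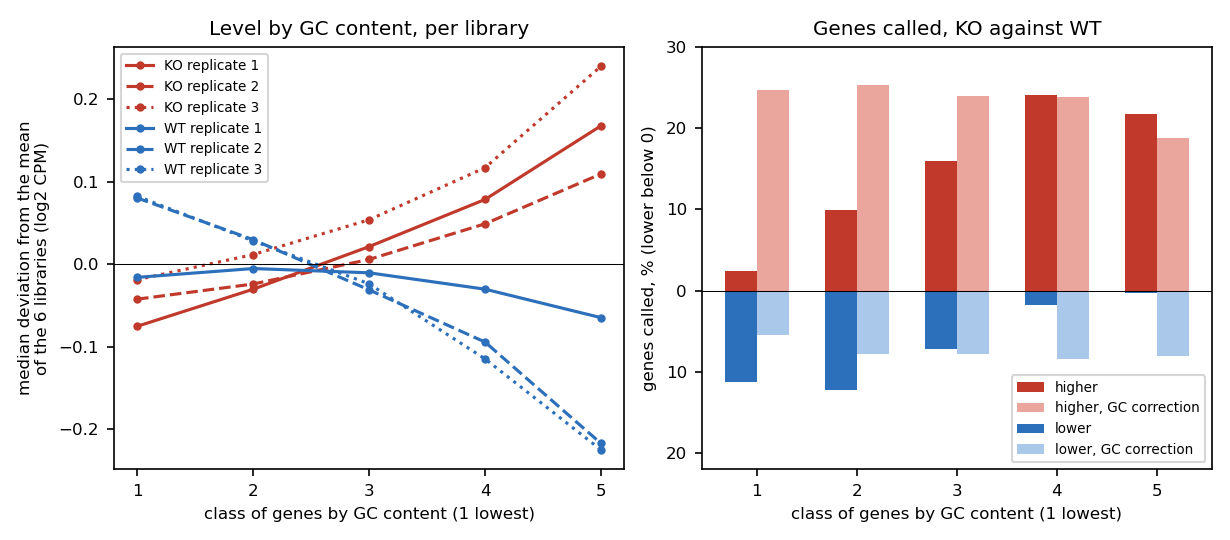
Left, the median deviation of each library from the mean of the 6 libraries (log2 CPM) in 5 classes of 9944 expressed protein-coding genes by GC content. Right, the percentage of genes called higher (above 0) and lower (below 0) in each class, without and with the GC correction. KO libraries rise and WT libraries fall towards GC-rich genes, and the share called higher goes from 2.46% to 21.8% without the correction and from 24.7% to 18.8% with it.

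Secreted cytokines and chemokines, the messengers by which CD8 T cells act on other cells, rose widely. Of 23 members tested, 17 rose in KO cells and 0 fell, with a median log2 fold change of 1.28 beside 0.037 over all genes tested. With the GC correction 16 were higher and 1 lower, and without KO replicate 3 the counts were 13 and 0. The members were chosen with results on these samples known, so their count is not independent evidence of a direction. Many of these genes are known targets of NFAT, the factor that calcium signals from the antigen receptor bring into the nucleus. The bases before the annotated starts of Ifng and Il2 are shown because these genes bear on the subject of the study (RefSeq, GRCm38.p6; Ifng chr10:118440796-118441045, plus strand; Il2 chr3:37125955-37126204, minus strand; written 5′ to 3′ up to the base before the start). Capitals mark the NFAT core GGAAA on either strand (TTTCC on the other) and the STAT motif TTCNNNGAA, which is its own reverse complement.
Ifng: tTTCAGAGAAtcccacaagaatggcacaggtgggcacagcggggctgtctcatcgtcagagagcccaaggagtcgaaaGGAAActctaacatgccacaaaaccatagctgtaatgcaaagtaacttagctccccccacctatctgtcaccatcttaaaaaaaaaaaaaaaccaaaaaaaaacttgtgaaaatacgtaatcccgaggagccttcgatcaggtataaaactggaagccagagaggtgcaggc
Il2: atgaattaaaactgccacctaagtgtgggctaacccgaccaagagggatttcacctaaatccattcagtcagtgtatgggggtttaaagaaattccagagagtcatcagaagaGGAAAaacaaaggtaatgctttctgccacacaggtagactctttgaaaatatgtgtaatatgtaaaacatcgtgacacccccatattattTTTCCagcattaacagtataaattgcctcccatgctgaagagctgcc
The Ifng stretch held 1 NFAT core and 1 STAT motif and the Il2 stretch 2 NFAT cores. Neither held TGANTCA, a motif of AP-1. Of all 32851 promoter stretches of this length in the RefSeq table, 55.6% held the NFAT core, 7.02% the STAT motif and 6.75% the AP-1 motif. Of the 17 cytokine and chemokine genes called higher, 14 had a stretch and 13 of these held the NFAT core. The share over all called higher genes was 59.4% (1300 with a stretch), over called lower genes 58.5% (568) and over all tested genes 58.9% (10096). No share was taken over the list members that were not called, so whether the motif goes with the genotype difference was not tested. A match is a string of letters and not a measured binding site.

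Ifng (ENSMUSG00000055170; GRCm38 chromosome 10, 118441046 to 118445892, plus strand, protein coding) encodes interferon-gamma, which activates macrophages and raises antigen presentation. It stood at 328, 439 and 572 CPM in KO and 97.4, 85.5 and 87.7 CPM in WT cells (2.31 ± 0.30, adjusted p = 0.000313). Unstimulated cells of both genotypes held far less, at 6.18 to 7.76 CPM in KO and 6.64 to 10.2 CPM in WT. Il2 (ENSMUSG00000027720; GRCm38 chromosome 3, 37120523 to 37125959, minus strand, protein coding), the T cell growth factor, stood at 11.4, 16.2 and 18.4 CPM in KO and 1.76, 3.51 and 2.59 CPM in WT libraries (2.51 ± 0.44, adjusted p = 0.00168), and no KO library overlapped a WT library for either gene. Tnf, an inflammatory cytokine, stood at 103, 107 and 140.3 CPM in KO and 49.3, 60.7 and 42.7 CPM in WT cells (1.20 ± 0.17, adjusted p = 0.000303). Lta, a close relative of Tnf, rose by 1.99 ± 0.23 (adjusted p = 8.39e-05). Csf2, which encodes the myeloid growth factor GM-CSF, was low in both genotypes, at 3.78, 3.6 and 6.2 CPM in KO and 1.65, 1.11 and 1.05 CPM in WT cells (1.88 ± 0.38, adjusted p = 0.0033).

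Lif (ENSMUSG00000034394; GRCm38 chromosome 11, 4257557 to 4272514, plus strand, protein coding), a cytokine of the interleukin-6 family, had the highest log2 fold change among the genes named by rule. WT libraries held 0.797, 1.52 and 1.08 CPM and KO libraries 16.3, 18.3 and 34.7 CPM, so that KO replicate 3 had about as much as the other KO libraries together (4.29 ± 0.40, adjusted p = 1.86e-05). Without that replicate the difference was 3.88 (adjusted p = 6.31e-05). The chemokine genes Ccl3 and Ccl4, whose products draw in other immune cells, were among the most abundant of the list. Ccl3 stood at 498, 585 and 690.3 CPM in KO and 168, 164 and 172 CPM in WT libraries (1.82 ± 0.22, adjusted p = 0.000148), and Ccl4 at 423, 459 and 554 CPM and 177, 178 and 169.5 CPM (1.45 ± 0.14, adjusted p = 1.37e-05). WT libraries agreed within a narrow range for both genes, and the KO libraries all lay more than 2-fold above them.

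**Figure D3:**
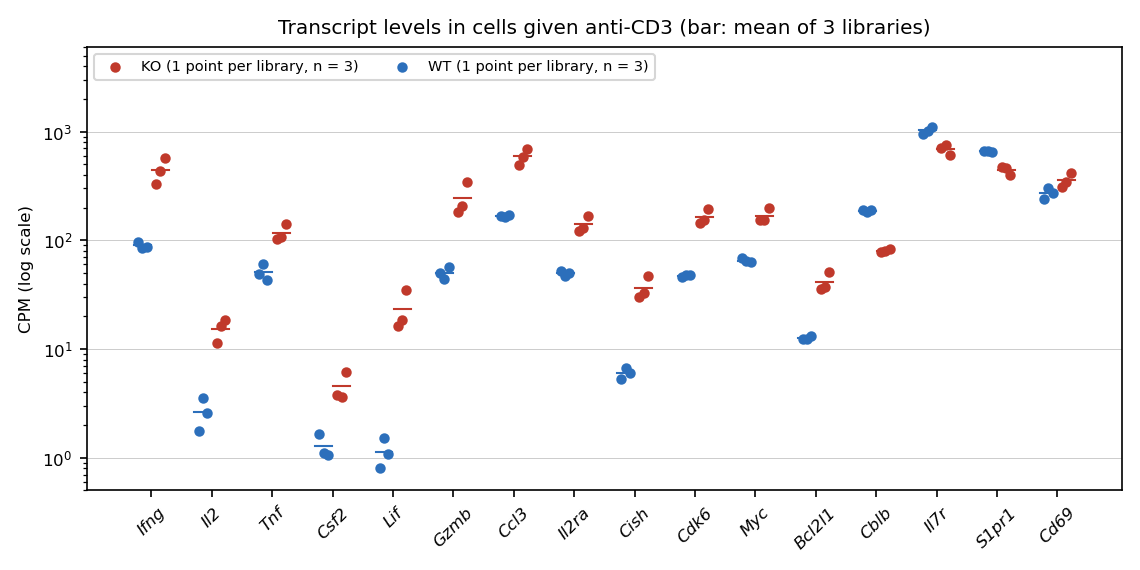
CPM of 16 genes in the 3 KO (red) and 3 WT (blue) libraries of cells given anti-CD3, on a log axis, 1 point per library with a bar at the mean. The KO and WT points do not overlap for any gene shown; Cblb, Il7r and S1pr1 are lower in KO, and Cd69 (adjusted p = 0.208) was not called.

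Of 24 granule, killing and effector genes tested, 9 rose (37.5%, beside 10.5% of all genes) and 1 fell (4.17%, beside 4.8%), with a median of 0.36. The counts were 10 and 1 with the GC correction (all genes 16.1% and 5.46%) and 3 and 1 without KO replicate 3 (3.8% and 1.46%). Gzmb, which encodes the granule protease granzyme B, stood at 182, 207 and 346 CPM in KO and 50.4, 43.9 and 56.5 CPM in WT cells (2.29 ± 0.39, adjusted p = 0.00218), again highest in KO replicate 3. Nkg7, a granule membrane protein, and Prf1, the pore-forming perforin, rose less, by 1.03 ± 0.14 and 0.66 ± 0.12 (adjusted p = 0.000167 and 0.00124). Klrd1, which encodes CD94, a partner of inhibitory NKG2 receptors, fell from 159, 166 and 187 CPM in WT to 117, 117 and 99.8 CPM in KO cells (-0.62 ± 0.12, adjusted p = 0.00314).

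Ligands and receptors of the TNF superfamily, which carry contact signals between immune cells, had 7 of 22 members higher and 1 lower (median 0.36), 9 and 1 with the GC correction and 6 and 1 without KO replicate 3. Tnfsf11, which encodes RANK ligand, stood at 18.4, 20.1 and 21.1 CPM in KO and 7.74, 6.43 and 8.33 CPM in WT cells (1.41 ± 0.26, adjusted p = 0.00175). Tnfsf14 (LIGHT), the death receptor gene Tnfrsf21 and the costimulatory receptor gene Tnfrsf9 (4-1BB) rose by 1.08 ± 0.14, 1.22 ± 0.21 and 0.60 ± 0.11 (adjusted p 0.000168 to 0.00222). The one member that fell was Tnfrsf26, at -0.51 ± 0.087 (adjusted p = 0.000957).

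Signalling genes upstream of these targets had a small median fold change, and those called in the fit of all 17 libraries without GC correction were lower. Of 38 genes of antigen receptor and CD28 signalling, 0 rose (beside 10.5% of all genes) and 8 fell (21.1%, beside 4.8%). The median was -0.063 and the range ran from -0.44 to 0.67. This list depended on the GC trend, with 5 higher and 6 lower after the correction, beside 16.1% and 5.46% of all genes. Without KO replicate 3 the counts were 0 higher and 2 lower, beside 3.8% and 1.46%. In the fit of the 6 libraries alone they were 7 and 15, beside 20.6% and 14.1%. Pik3r1, the regulatory subunit of phosphoinositide 3-kinase, stood at 136, 141 and 130.3 CPM in KO and 173, 176 and 191 CPM in WT libraries (-0.41 ± 0.074, adjusted p = 0.0016), and kept its call with the GC correction (adjusted p = 0.00742). Cd3g, a chain of the receptor complex, had -0.37 ± 0.072 (adjusted p = 0.00248) but -0.16 with the correction (adjusted p = 0.316). Cd28 had -0.36 ± 0.12 (adjusted p = 0.0433), and its call was lost with the correction (adjusted p = 0.109) and without any 1 of the 6 libraries (adjusted p 0.0685 to 0.151). Ubiquitin ligases and other regulators of tolerance besides Cblb had 0 of 23 higher and 2 lower, 4 and 2 with the correction, and 0 and 0 without KO replicate 3. These were Cyld, a deubiquitinase (-0.31 ± 0.084, adjusted p = 0.019), and Itch, an E3 ligase (-0.31 ± 0.089, adjusted p = 0.0272). Itch lost its call with the GC correction (adjusted p = 0.132), without KO replicate 1 and without WT replicate 2 or 3 (adjusted p 0.0764 to 0.111), and Cyld without WT replicate 2 or 3 (adjusted p 0.0697 to 0.0782).

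The nuclear factors that the receptor calls on form the next list. Of 29 genes of NFAT, AP-1, NF-kappaB and IRF factors and their inhibitors, 17 rose and 1 fell (median 0.49, and 0.29 with the GC correction, which called 17 and 2). The list is GC-rich, with a median GC content of 55.3%, and without KO replicate 3 its counts were 5 and 0. Irf8, a factor of the interferon regulatory family, had the lowest adjusted p of the list, with 35.8, 37.6 and 36.9 CPM in WT and 104, 105 and 157 CPM in KO libraries (1.73 ± 0.15, adjusted p = 8.17e-06). Nfkb1 and Nfkbid, a subunit and an inhibitor-like regulator of NF-kappaB, rose by 0.56 ± 0.093 and 0.90 ± 0.11 (adjusted p = 0.000818 and 9.85e-05), and Bhlhe40, a cofactor of cytokine expression, by 1.33 ± 0.26 (adjusted p = 0.00295). Nfatc1, whose short form is induced by the receptor, stood at 94.7, 91.2 and 93.7 CPM in KO and 86.7, 79.8 and 73.8 CPM in WT cells, with no overlap but a small difference (0.22 ± 0.12, adjusted p = 0.248). Nfatc3, a member present in resting cells, was the one that fell (-0.34 ± 0.083, adjusted p = 0.0103, and 0.0774 without KO replicate 3).

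Anergy-associated genes did not move as a block. Of 18 tested, 7 rose and 3 fell (median 0.45), with the same counts after the GC correction. The 4 risers with the lowest adjusted p are also known to be induced by the receptor: Nr4a3 at 137, 154 and 171 CPM in KO and 77, 77.1 and 71.5 CPM in WT cells (1.04 ± 0.15, adjusted p = 0.000262), Egr2 and Nr4a1 higher by 0.58 ± 0.11 and 0.90 ± 0.18 (adjusted p = 0.00222 and 0.00391), and Tnfrsf9 as given above. The 3 that fell were Dgka, a kinase that removes the second messenger diacylglycerol, Tob1, an antiproliferative factor, and Nt5e (CD73). Dgka stood at 554, 522 and 469 CPM in KO and 701, 651 and 673 CPM in WT cells (-0.39 ± 0.097, adjusted p = 0.0122), Tob1 had -0.50 ± 0.12 (adjusted p = 0.0102) and Nt5e -0.28 ± 0.093 (adjusted p = 0.048). All 3 lost their call without KO replicate 3 (adjusted p 0.0756 to 0.225), when the list counts were 5 and 0. Tob1 also lost it without WT replicate 3 (adjusted p = 0.0618), and Nt5e without KO replicate 1 or WT replicate 2 or 3 (adjusted p 0.101 to 0.163). Feedback inhibitors of receptor signalling had 7 of 26 higher and 0 lower (6 and 0 with the GC correction, 3 and 0 without KO replicate 3). Cish, an inhibitor that STAT5 induces downstream of interleukin-2, rose most among them, at 30.3, 33 and 46.8 CPM in KO and 5.29, 6.74 and 6.05 CPM in WT cells (2.60 ± 0.24, adjusted p = 1.37e-05). Of the phosphatases of MAP kinases, Dusp5 rose by 1.19 ± 0.19 (adjusted p = 0.000731) and kept its call with the GC correction, while Dusp2 had 0.55 ± 0.11 (adjusted p = 0.00412) and 0.18 with the correction (adjusted p = 0.528).

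Cytokine receptors were mixed, with 7 of 25 higher and 2 lower (7 and 5 with the GC correction, 3 and 1 without KO replicate 3). Il2ra, the subunit that gives the interleukin-2 receptor its high affinity, stood at 122, 131 and 166 CPM in KO and 51.9, 46.9 and 50.3 CPM in WT cells (1.50 ± 0.20, adjusted p = 0.000262). Il12rb1, a chain of the receptor for interleukin-12, rose by 1.33 ± 0.19 (adjusted p = 0.000261). Il7r, the receptor chain for the survival cytokine of resting T cells, fell from 954, 1021 and 1105 CPM to 709, 752 and 609.6 CPM (-0.57 ± 0.10, adjusted p = 0.00148). Transcription factors of effector and memory cells had 5 of 27 higher and 3 lower (7 and 3 with the GC correction, 4 and 2 without KO replicate 3). Eomes and Tbx21, T-box factors of effector CD8 cells, stood at 98, 110.1 and 145 CPM and 36.6, 40.1 and 52.4 CPM in KO and at 41.8, 36.4 and 45.7 CPM and 19.5, 15.9 and 16.3 CPM in WT cells, both without overlap (1.52 ± 0.16 and 1.33 ± 0.16, adjusted p = 2.85e-05 and 7.04e-05). Stat5a, which acts below the interleukin-2 receptor, rose by 0.72 ± 0.13 (adjusted p = 0.00164), and Hopx by 0.66 ± 0.13 (adjusted p = 0.00283). Bcl6, a repressor that opposes effector fate, fell from 35.7, 33.4 and 29.5 CPM to 22, 19.7 and 16 CPM (-0.78 ± 0.15, adjusted p = 0.00243). Tcf7, which marks naive and memory cells, had -0.22 ± 0.11 and was not called (adjusted p = 0.174), though it was with the GC correction (adjusted p = 0.0151).

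The FOXO1 and KLF2 programme of quiescent T cells leaned downward, with 2 of 28 members higher and 9 lower (median -0.26), 2 and 12 with the GC correction and 1 and 3 without KO replicate 3. Sesn1 and Ccng2, FOXO targets that slow growth and division, fell by 0.60 ± 0.091 and 0.59 ± 0.091 on the log2 scale (adjusted p = 0.000453 and 0.000507), and Klf3 stood at 286, 277 and 232 CPM in KO and 376, 365 and 379 CPM in WT cells (-0.49 ± 0.092, adjusted p = 0.00191). Bcl2, an antiapoptotic gene on the same list, went the other way, at 249, 254 and 305 CPM in KO and 127, 141 and 154 CPM in WT cells (0.94 ± 0.13, adjusted p = 0.000185). Its relative Bcl2l1, which encodes Bcl-xL, rose more, from 12.5, 12.3 and 13.2 CPM to 35.3, 37.4 and 51.4 CPM (1.71 ± 0.14, adjusted p = 3.08e-06). GIMAP GTPases, which support survival of resting lymphocytes, had 0 of 8 higher and 4 lower, 1 and 4 with the correction and 0 and 1 without KO replicate 3. Gimap9 fell from 227, 214 and 228 CPM to 163, 155 and 156 CPM (-0.50 ± 0.081, adjusted p = 0.000773). Homing receptors and integrins had 3 of 26 higher (11.5%, beside 10.5% of all genes) and 6 lower (23.1%, beside 4.8%). The counts were 7 and 8 with the correction and 0 and 6 without KO replicate 3. S1pr1, the receptor that lets T cells leave lymphoid tissue, stood at 472, 458 and 398 CPM in KO and 662, 660 and 647 CPM in WT cells (-0.57 ± 0.080, adjusted p = 0.000261). The integrin genes Itga4 and Itga6 and the gut homing receptor gene Ccr9 had -0.69 ± 0.11, -0.44 ± 0.074 and -0.72 ± 0.12 (adjusted p 0.000507 to 0.000843). None of the 3 that rose (Cd44, Cxcr3 and Itgav) was called without KO replicate 3 (adjusted p 0.0506 to 0.143), and Cxcr3 and Itgav lost their call without any 1 of the 6 libraries (adjusted p 0.0594 to 0.161 and 0.0814 to 0.168). Cd44, an adhesion receptor raised on activated cells, had 0.64 ± 0.15 (adjusted p = 0.00731).

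Several lists of growth and protein synthesis had most of their members higher. Nucleotide synthesis, which supplies bases for RNA and DNA, had 20 of 25 genes higher and 1 lower (median 0.65), and 23 and 0 with the correction. Mthfd1, a folate enzyme, stood at 114, 102 and 142 CPM in KO and 64.3, 60.8 and 57 CPM in WT cells (0.98 ± 0.12, adjusted p = 7.32e-05). The purine enzyme genes Gart and Pfas and the pyrimidine enzyme gene Umps rose by 0.83 ± 0.10, 0.87 ± 0.12 and 0.84 ± 0.097 (adjusted p 5.97e-05 to 0.000172). Aminoacyl-tRNA synthetases, which load tRNAs for protein synthesis, had 17 of 20 higher and 0 lower (median 0.53), and 18 and 0 with the correction. Their range reached 0.80 at most, and Mars, for methionine, stood at 98.1, 95.3 and 111 CPM in KO and 63.2, 56.9 and 55.4 CPM in WT cells (0.80 ± 0.11, adjusted p = 0.00019). Translation initiation factors had 17 of 25 higher and 0 lower, and 25 of 25 with the correction. Eif3b, a subunit of the factor that brings the small ribosomal subunit to mRNA, rose by 0.79 ± 0.094 (adjusted p = 7.98e-05), and Eif4ebp1, an inhibitor of initiation, by 1.12 ± 0.18 (adjusted p = 0.000729). Without KO replicate 3 the counts of these 3 lists were 13, 8 and 11 higher and 0 lower.

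Import into mitochondria had 15 of 25 genes higher, nuclear transport 16 of 27, and the chaperonin CCT with prefoldin 8 of 15, each with 0 lower. With the GC correction these counts were 20, 23 and 13, and without KO replicate 3 they were 10, 7 and 4. Tomm40, the channel of the outer membrane, stood at 48, 51.7 and 65.1 CPM in KO and 25.1, 26.9 and 24.8 CPM in WT cells (1.10 ± 0.15, adjusted p = 0.000205). Ran, the GTPase that gives nuclear transport its direction, and its exchange factor Rcc1 rose by 0.70 ± 0.13 and 0.99 ± 0.12 (adjusted p = 0.00227 and 7.04e-05), and Cct3 and Cct7, subunits of the chaperonin that folds actin and tubulin, by 0.61 ± 0.11 and 0.65 ± 0.096 (adjusted p = 0.00142 and 0.000365). Polyamine and hypusine genes had 5 of 14 higher and 1 lower (7 and 0 with the GC correction, 2 and 0 without KO replicate 3). Srm, spermidine synthase, stood at 71.3, 69 and 100.5 CPM in KO and 34.8, 31.8 and 29.3 CPM in WT libraries (1.33 ± 0.16, adjusted p = 9.22e-05), and Eif5a, the factor that carries hypusine, rose by 0.88 ± 0.10 (adjusted p = 7.04e-05). Myc, a factor known to drive many of these genes, stood at 154, 153 and 197 CPM in KO and 68.5, 63.9 and 63.2 CPM in WT cells (1.37 ± 0.12, adjusted p = 8.88e-06).

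The list of splicing factors is AT-rich, with a median GC content of 43.1%, and had 9 of 33 genes higher and 1 lower without the correction and 19 and 0 with it (4 and 0 without KO replicate 3). Snrpd1 and Ptbp1, a core splicing protein and a splicing repressor, rose by 0.66 ± 0.14 and 0.69 ± 0.15 (adjusted p = 0.00407 and 0.00536). Long noncoding RNAs and hosts of small nucleolar RNAs had 3 of 20 higher and 0 lower, 10 and 0 with the correction and 1 and 0 without KO replicate 3. Snhg15, a host gene, stood at 33.5, 35.8 and 45.6 CPM in KO and 22.4, 25.5 and 20.8 CPM in WT cells (0.74 ± 0.13, adjusted p = 0.00138). Chromatin modifiers had 9 of 35 higher and 1 lower, 10 and 0 with the correction and 6 and 0 without KO replicate 3. Uhrf1, which guides DNA methylation to new strands, rose most among them, at 31.2, 28.8 and 46.1 CPM in KO and 10, 8.68 and 11.7 CPM in WT libraries (1.81 ± 0.19, adjusted p = 2.85e-05), and Dnmt3a, a DNA methyltransferase, rose by 0.61 ± 0.096 (adjusted p = 0.000584).

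The shares of 3 further lists are given beside those over all genes, 10.5% higher and 4.8% lower. Actin cytoskeleton genes had 5 of 31 higher (16.1%) and 2 lower (6.45%), and hypoxia and HIF1 targets 3 of 17 (17.6%) and 2 (11.8%). Lysosome and autophagy genes had 1 of 25 higher (4%) and 3 lower (12%). With the GC correction these counts were 6 and 2, 6 and 2, and 2 and 6 (all genes 16.1% and 5.46%). Without KO replicate 3 they were 2 and 0, 2 and 1, and 1 and 1 (all genes 3.8% and 1.46%). Lysosome and autophagy genes were thus called lower more often than all genes, without and with the correction. With the form of the correction that sets library levels, the median of actin genes went from 0.15 to -0.078, that of homing receptors from 0.12 to -0.077, that of cytokine receptors from 0.086 to -0.022, that of effector and memory transcription factors from 0.15 to -0.00058 and that of feedback inhibitors from 0.19 to 0.0053, while the median of the ubiquitin ligase list went from 0.063 to -0.016 with the plain correction. Vim, the intermediate filament vimentin, stood at 60.7, 71 and 90.3 CPM in KO and 26.9, 23.4 and 30.5 CPM in WT libraries (1.46 ± 0.15, adjusted p = 2.85e-05). Among HIF1 targets, Vegfa, an angiogenic factor, and Slc2a1, a glucose transporter, rose by 1.33 ± 0.21 and 0.59 ± 0.13 (adjusted p = 0.000601 and 0.00506). Pdk1, a kinase that inhibits pyruvate dehydrogenase, fell from 325, 345 and 354 CPM to 271, 257 and 242 CPM (-0.41 ± 0.073, adjusted p = 0.00143).

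**Figure D4:**
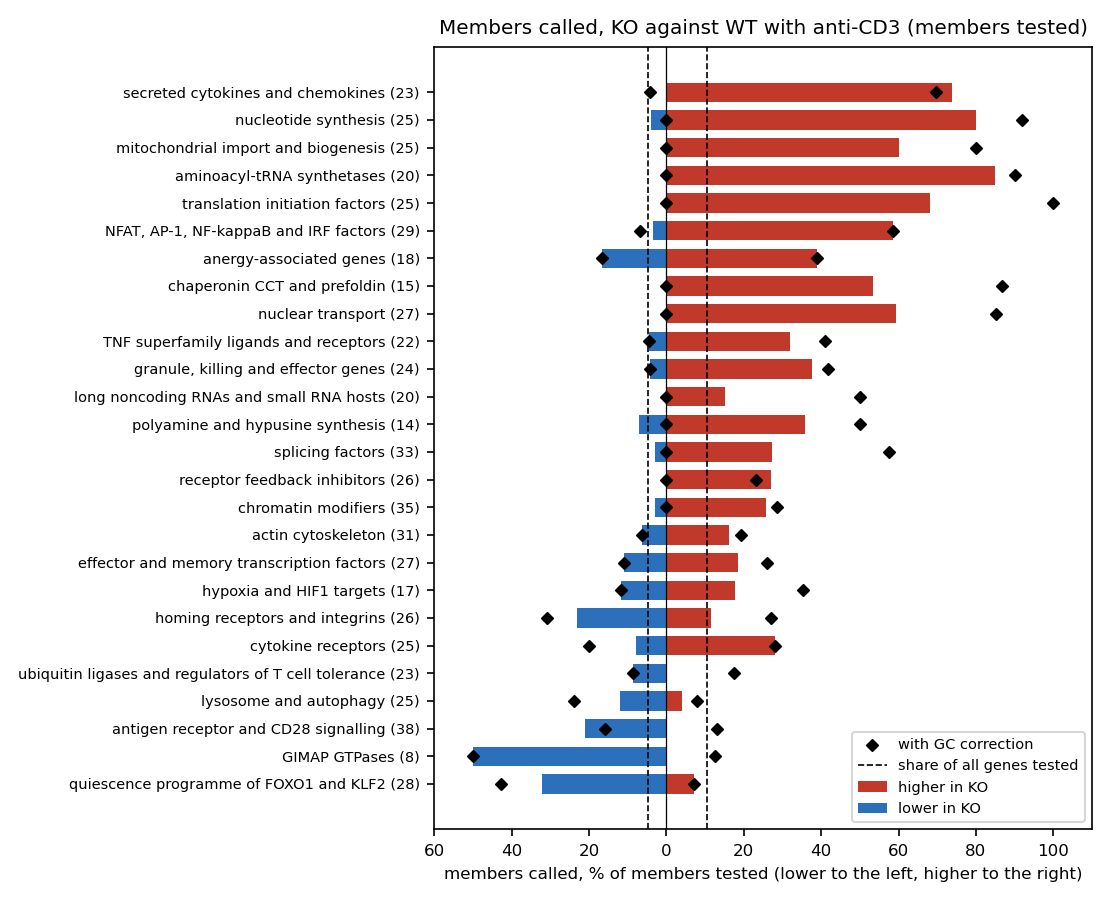
Share of each list's tested members called higher (red, to the right) and lower (blue, to the left) in KO cells given anti-CD3, with the number tested in brackets and lists ordered by median log2 fold change. Dashed lines mark the shares over all genes tested (10.5% higher and 4.8% lower), and diamonds the shares with the GC correction, for which all genes stand at 16.1% and 5.46%.

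A further set of 20 genes, many of them members of the lists above, was chosen by name with earlier results of these data known. Of these 20, 15 rose and 3 fell, beside 10.5% and 4.8% of all genes (16 and 2 with the GC correction, 15 and 2 without KO replicate 3). Given that choice, the count is not independent evidence of a direction. The 3 that fell were Cd28, Il7r and Cblb itself, the knocked-out gene used above to check the labels. Other genes were named for the size of their difference. Among genes that rose, Igfbp4, a binding protein of insulin-like growth factors, stood at 22.9, 25.9 and 26.7 CPM in KO and 6.88, 6 and 6.65 CPM in WT cells (1.96 ± 0.15, adjusted p = 2.96e-06). Cdk6, a kinase of the G1 phase of the cell cycle, stood at 145, 154 and 194 CPM in KO and 46.3, 47.8 and 48.2 CPM in WT libraries (1.79 ± 0.16, adjusted p = 8.17e-06), and the WT libraries hardly differed. Lad1, a protein of epithelial anchoring filaments, was low and spread widely among KO libraries, at 8.96, 16.2 and 25.7 CPM (WT 4.95, 2.56 and 2.1 CPM; 2.45 ± 0.43, adjusted p = 0.00172). Among genes that fell, Gria3, a glutamate receptor subunit, stood at 3.15, 4.5 and 2.19 CPM in KO and 8.93, 9.46 and 9.13 CPM in WT cells (-1.52 ± 0.30, adjusted p = 0.00276). Pcsk1, a protease that matures prohormones, had -1.26 ± 0.26 (adjusted p = 0.00407). Slc6a19, an amino acid transporter, and Selenop, a selenium carrier, were more abundant: Selenop stood at 142, 143 and 116 CPM in KO and 235, 262 and 242 CPM in WT libraries (-0.88 ± 0.11, adjusted p = 8.56e-05), and Slc6a19 had -0.91 ± 0.14 (adjusted p = 0.000463). The lncRNA gene Dubr, near Cblb on chromosome 16, had -0.88 ± 0.18 (adjusted p = 0.00403).

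The genotype difference with anti-CD3 was then set beside that in the other states. In unstimulated cells 4134 genes were called (25.4%), 2493 higher (15.3%) and 1641 lower (10.1%), and with both antibodies 2621 (16.1%), 1598 higher (9.84%) and 1023 lower (6.3%). Where the difference between genotype effects was itself tested, 9 genes passed for anti-CD3 against unstimulated cells (0.0554%), 8 with a higher effect (0.0492%) and 1 with a lower one (0.00616%), and 1 gene for anti-CD3 against both antibodies (0.00616%); at an unadjusted p under 0.05 the counts were 2399 and 4641. These counts varied widely with the settings, from 0 to 918 in the first and from 0 to 7681 in the second. Leaving out 1 library moved the first between 0 and 20 (the latter without KO unstimulated replicate 2, the former without WT anti-CD3 replicate 1 or 2 or WT unstimulated replicate 2) and the second between 0 and 4753 (the latter without KO both-antibody replicate 1).

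Cdk6 was called in 24 of 27 alternatives to that test. In unstimulated cells it stood at 46.5, 49.8 and 61.4 CPM in KO and 53.5, 53.9 and 41.9 CPM in WT cells, which overlap (0.074 ± 0.16), so that the difference between the effects was 1.72 ± 0.22 (adjusted p = 0.00887). Cish differed between the states by 2.14 ± 0.37 (adjusted p = 0.0441; called in 14 of 27 alternatives), with 2.92, 3.17 and 5.24 CPM in unstimulated KO and 1.62, 2.74 and 3.85 CPM in unstimulated WT cells. Plk2, a polo-like kinase, rose with anti-CD3 (1.47 ± 0.24, adjusted p = 0.00073). In unstimulated cells it stood at 7.3 to 9.17 CPM in KO and 9.9 to 13.5 CPM in WT (-0.54 ± 0.23, adjusted p = 0.0887; difference of effects 2.01 ± 0.33, adjusted p = 0.0376; 12 of 27). Igfbp4 is abundant in resting cells, at 147 to 216 CPM in unstimulated KO and 98.4 to 144 CPM in unstimulated WT cells, and far lower in every library given anti-CD3. Its genotype difference was 0.64 ± 0.14 unstimulated and 1.96 ± 0.15 with anti-CD3 (difference of effects 1.32 ± 0.20, adjusted p = 0.03; 15 of 27).

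Hsph1, a heat shock protein, changed direction: KO cells had less of it unstimulated (-0.58 ± 0.12, adjusted p = 0.00816) and more with anti-CD3, at 163, 159 and 170 CPM against 121, 104 and 109 CPM in WT (0.56 ± 0.12; difference of effects 1.14 ± 0.17, adjusted p = 0.03). Nob1, which cuts the precursor of 18S ribosomal RNA, was the gene that differed between anti-CD3 alone and both antibodies. It stood at 33.6, 30.8 and 38.2 CPM in KO and 17.2, 14.1 and 18 CPM in WT cells with anti-CD3 (1.06 ± 0.12) and at 22.9 to 26.9 CPM in KO and 26.2 to 28.2 CPM in WT cells with both (-0.16 ± 0.14; difference 1.22 ± 0.18, adjusted p = 0.0482; 10 of 27). For Ifng the genotype difference was 2.31 ± 0.30 with anti-CD3 and 2.87 ± 0.37 with both antibodies, a difference of -0.57 ± 0.44 that was not called (adjusted p = 0.414). Against unstimulated cells the difference of effects for Ifng was 2.57 ± 0.45 and did not pass either (adjusted p = 0.0502), nor did it for Myc, at 0.49 ± 0.17 (adjusted p = 0.228). Myc was also called higher in KO cells when unstimulated (0.88 ± 0.12, adjusted p = 0.0023) and with both antibodies (0.51 ± 0.14, adjusted p = 0.0241). Bcl2l1, Irf8, Il12rb1, Il7r and Itga4 were called in unstimulated cells too, in the same direction as with anti-CD3 (adjusted p 0.00154 to 0.00834). Ifng, Il2, Gzmb, Cish and Il2ra were not called in unstimulated cells. The differences of effects share the anti-CD3 libraries, and libraries of the other states stood apart. Against the mean of all 17 libraries, replicate 2 of the unstimulated KO cells had a GC tilt of 1.00, and replicate 3 of the KO cells given both antibodies had one of -1.03. All remaining libraries lay between -0.66 and 0.50. By state, unstimulated KO replicates 1 to 3 had 0.46, 1.00 and 0.17 and unstimulated WT replicates -0.66, -0.30 and -0.26. With both antibodies the order was reversed, at 0.31, -0.30 and -1.03 in KO and 0.50 and 0.48 in WT libraries. The tilt between genotypes thus differed between the states, and its part in the differences of effects was not tested. KO unstimulated replicate 2 also held 160059285 counts, while every other library held 16635826 to 38269033. Without these 2 libraries the counts were 136 and 1067 genes.

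**Figure D5:**
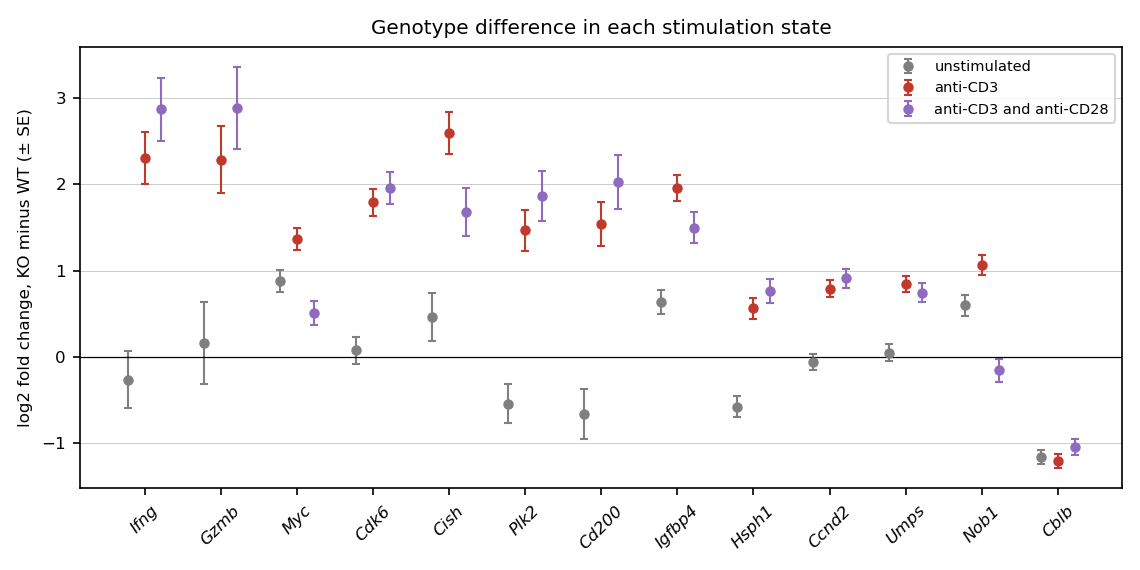
Log2 fold change of KO minus WT ± SE for 13 genes in unstimulated cells (grey), with anti-CD3 (red) and with anti-CD3 and anti-CD28 (purple). Cdk6 is near 0 in unstimulated cells and above 1.5 in both stimulated states, and Cblb lies near -1 in all 3 states.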

How the data were processed

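Total RNA from purified CD8+ T cells was depleted of ribosomal RNA and sequenced as paired ends with a stranded kit, per the labels' protocols. The authors deposited a table of raw counts per gene for each library. STAR 2.5.2 and RSEM 1.3.0 with GRCm38 (mm10) are named in the submitters' processing notes, and neither strand setting nor annotation release is given in the sources used. Groups came from the labels. Of 53679 genes, 24955 had 0 counts in all 17 libraries, and 53650 identifiers matched GENCODE M21 on GRCm38, which gave symbols, positions and GC content. Replicate 1 of WT cells given both antibodies was not analysed here.

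Counts were scaled by TMM in edgeR 4.0.16 (R 4.3.3), filtered by filterByExpr to 16246 genes and fitted over all 6 groups, which share 1 estimate of spread, with robust quasi-likelihood tests and no replicate block (common biological coefficient of variation 0.153). SE is the log2 fold change divided by the root of F. The GC correction took from each library a loess curve (span 0.3) fitted where the mean log2 CPM was 1 or more. No pair of replicates matched within counting noise (chi-square divided by genes, 4.03 to 43.2), and each counted as 1 sample. limma 3.58.1 and DESeq2 1.42.0 served as alternatives. The test was also run on simulated counts with known changes and the same spread for every gene. With a GC trend added to the simulated KO libraries, the fit without GC correction called more unchanged genes than the corrected fit. The simulation does not show how many of the calls reported here are of that kind.

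Members and lists were chosen with earlier results of these data known. Genes were named if chosen by symbol, if among the 12 highest or 12 lowest called protein-coding fold changes (mean log2 CPM of at least 2, no overlap) or 3 noncoding ones per direction, if among up to 4 called members per direction or 2 uncalled members of a list, or if called in a difference of effects (6 per direction). From these the text gives a part. Cd200 was named after its values were seen, and some genes that the rule names are not reported here. Intervals and tests cover counts of these libraries. Totals of the 6 anti-CD3 libraries ran from 16635826 to 38269033.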

Additional observations from a re-analysis of the deposited data

Results flagged for a closer look

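In the genes named here the genotype effect with anti-CD3 differed from that in another state by the test of the difference itself (edgeR, adjusted p below 0.05). Against unstimulated cells the log2 difference of effects was 2.14 ± 0.37 for Cish, 1.72 ± 0.22 for Cdk6, 1.32 ± 0.20 for Igfbp4, 2.01 ± 0.33 for Plk2 and 2.21 ± 0.39 for Cd200. It was 1.14 ± 0.17 for Hsph1, 0.80 ± 0.14 for Umps and 0.85 ± 0.14 for Ccnd2. Against cells given both antibodies it was 1.22 ± 0.18 for Nob1. Adjusted p ran from 0.00887 for Cdk6 to 0.0482 for Nob1. Over 27 alternatives the call stood in 24 for Cdk6, 15 for Igfbp4 and Hsph1, 14 for Cish and Ccnd2, 12 for Plk2, 11 for Umps and 10 for Cd200 and Nob1, and the highest adjusted p was 0.0585 for Cdk6 and 0.168 to 0.204 for the others. Each difference kept its sign in all 27, and what lies behind it was not tested.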

How the results depend on the processing

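In place of 2492 genes called with anti-CD3, the count was 5742 by limma voom, 5262 in a fit of the 6 libraries alone and 4376 in that fit with the GC correction. Leaving out 1 of the 6 anti-CD3 libraries gave 853 (without KO replicate 3) to 2086, with 1348 and 1268 without WT replicates 2 and 3. Leaving out 1 of the other 11 gave 2056 to 3528, the latter without KO both-antibody replicate 3, and without that library and KO unstimulated replicate 2 together it was 4229. Leaving out libraries of the other states, the GC correction that also sets library levels and the GC correction of the 6 libraries alone were chosen after seeing the data. The count moved by less than 1.5 times under the other settings run.

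For anti-CD3 against unstimulated cells, in place of 9 genes, the count was 212 by DESeq2, 918 by limma voom, 63 with no filter, 389 with the GC correction, 598 with that and the replicate block, 136 without the 2 libraries named above and 362 with library levels set. Leaving out 1 library of the groups compared gave 0 to 20. For anti-CD3 against both antibodies, in place of 1 gene, it was 0 by relative log expression, with a CPM filter, with the replicate block and with library levels set, 2255 by DESeq2, 7681 by limma voom, 326 with no filter, 43 with the GC correction, 17 with that and the replicate block, and 1067 without the 2 libraries. Leaving out 1 library of the groups compared gave 0 to 4753, the latter without KO both-antibody replicate 1. The cause was not tested.

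No pairing by replicate number was seen: deviations of same-numbered KO and WT libraries correlated at 0.026, 0.035 and -0.083, and of others at -0.079 to 0.055. Such values do not show whether same-numbered libraries were handled together, which no label says. With the replicate block 2388 genes were called, and of the genes described only Nt5e lost its call. Scaling by relative log expression ended the calls of Cxcr3 and Itgav, no filter those of Cxcr3, Cyld, Itch and Nt5e, and a CPM filter that of Itgav. The GC tilt, 0.44, ranged from 0.40 to 0.55 over its alternatives. No fold change of a gene described changed sign in any alternative.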
